A study of Mus musculus with 12 samples.

Results

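The voltage-gated potassium, sodium and calcium channel genes were followed in RNA from mouse embryonic cortex. Members were the protein-coding genes whose symbol is Kcna, Kcnb, Kcnc, Kcnd, Kcnh or Kcnq with a number, Scn with a number and the letter a or b, or Cacna1 with one of the letters a to i or s. The rule uses the symbol alone and found 54 genes among the 48709 gene identifiers of the deposited tables. Of these, 30 encode potassium channel subunits, 14 sodium channel subunits and 10 calcium channel subunits, in 11 subfamilies. In all, 48 members had enough reads to be tested, and the other 6 (Kcna7, Kcna10, Scn4a, Scn7a, Scn10a and Cacna1s) did not.

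These genes encode the pores, and for the sodium channels also the beta subunits, through which neurons fire and shape action potentials. Sodium channels carry the upstroke, potassium channels end the spike and set the resting excitability, and calcium channels couple depolarization to transmitter release and to signalling into the nucleus. In the embryonic cortex young projection neurons, Cajal-Retzius cells and interneurons arriving from the ventral telencephalon acquire these currents as they mature.

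The 12 libraries came from cortex of C57BL/6J embryos at E15.5, in 3 groups of 4. The groups were a conditional knockout (cKO) of BAF155, a subunit of the BAF chromatin remodelling complex encoded by Smarcc1, a group labelled as a cKO of the transcription factor Pax6, and Control. The labels do not give the Cre line, the floxed alleles, the genotype of the controls or whether each library is a separate embryo, so the p-values reflect the spread among libraries, part or all of which may be technical. Smarcc1 had 115 to 139 CPM (counts per M reads of the scaled library) in BAF155 cKO, 177 to 194 CPM in the libraries labelled Pax6 cKO, and 220 to 361 CPM in the controls. Pax6 had 273 to 369 CPM in BAF155 cKO, 380 to 399 CPM in the libraries labelled Pax6 cKO, and 82 to 125 CPM in the controls. Its counts go against the Pax6 label, and the group is therefore called the libraries labelled Pax6 cKO throughout. The counts cover the whole gene, so a transcript that only lacks a deleted exon would still be counted.

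Libraries differed in ways other than genotype. Total counts were 15.2 to 28.3 M reads in BAF155 cKO, 22.8 to 32 M in the libraries labelled Pax6 cKO, and 21.4 to 30.3 M in the controls. By Xist and 4 Y-linked genes all BAF155 cKO libraries were female, all libraries labelled Pax6 cKO were male, and controls 1 and 2 were male and controls 3 and 4 female. Deposited file names put BAF155 cKO 1 and 2 and all libraries labelled Pax6 cKO in lane 1, BAF155 cKO 3 and 4 in lane 3 and all controls in lane 8, so lane and genotype cannot be told apart in the comparisons with Control. Within BAF155 cKO, libraries 1 and 4 resembled each other, as did 2 and 3. Libraries 1 and 4 had 2.92% and 3.27% of reads from mitochondrial genes and a summed pan-neuronal marker level of 8441 and 8205 CPM. Libraries 2 and 3 had 1.57% and 2.09% mitochondrial reads and 10100 and 10540 CPM of the same markers. Controls 1 and 2, both male, had 2.27% and 2.18% mitochondrial reads and a summed deep-layer neuron marker level of 1185 and 1271 CPM. Controls 3 and 4, both female, had 1.21% and 1.38% mitochondrial reads and 1893 and 1741 CPM of those markers. Among controls, sex and these differences cannot be told apart.

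Markers of other cell types moved with both cKO groups. Markers are counted here at an edgeR adjusted p under 0.05. Of all genes tested, 13.6% passed it in BAF155 cKO and 35.5% in the libraries labelled Pax6 cKO. Of 12 markers of GABAergic neurons and ventral telencephalon, 9 rose in BAF155 cKO and 9 in the libraries labelled Pax6 cKO, and their summed level was 1258 to 1513 CPM in BAF155 cKO, 1518 to 1621 CPM in the libraries labelled Pax6 cKO, and 654 to 951 CPM in the controls. Of 10 upper-layer projection neuron markers, 8 fell in BAF155 cKO and all 10 in the libraries labelled Pax6 cKO, with sums of 1096 to 1584, 1109 to 1196 and 2105 to 2672 CPM in BAF155 cKO, labelled Pax6 cKO and Control. Of 10 deep-layer markers, 5 fell in BAF155 cKO, and 7 fell and 2 rose in the libraries labelled Pax6 cKO, with sums of 897 to 1222, 955 to 1045 and 1185 to 1893 CPM in the same order of groups. Of 10 Cajal-Retzius and preplate markers, 7 rose in BAF155 cKO and 8 in the libraries labelled Pax6 cKO. Of 14 pan-neuronal markers, 1 rose and 4 fell in the libraries labelled Pax6 cKO. Of 10 radial glia markers, 6 fell in BAF155 cKO, and 7 fell and 1 rose in the libraries labelled Pax6 cKO, and of 10 basal progenitor markers 5 fell in BAF155 cKO and 7 in the libraries labelled Pax6 cKO. Of the other lists, 1 of 10 endothelial and pericyte markers fell in BAF155 cKO, with 3 higher and 1 lower in the libraries labelled Pax6 cKO, and 1 of 7 tested meningeal markers rose in each. In BAF155 cKO 2 of 8 microglial markers fell, and 1 of 8 erythroid and 2 of 4 tested liver markers rose. In the libraries labelled Pax6 cKO 1 microglial marker fell, and 2 erythroid and 1 liver marker rose. The liver sum varied widely between libraries, at 219 CPM in BAF155 cKO 4 and 3.46 to 39.5 CPM in the other BAF155 cKO libraries. In labelled Pax6 cKO 1 to 4 the sum was 14.2, 319, 92.1 and 193 CPM, against 10.2 to 26.5 CPM in the controls. The liver list was Alb, Apoa1, Apoa2, Afp, Ahsg, Ttr, Serpina1a and Fgb, and the tissue source of its sum was not tested. The 4 tested liver markers did not move together. Their log2 fold changes ran from -1.24 to 9.59 in BAF155 cKO and from 0.03 to 3.32 in the libraries labelled Pax6 cKO. Of the 4 tested skeletal muscle markers the lowest edgeR adjusted p was 0.563 for Mylpf in BAF155 cKO and 0.127 for Actn2 in the libraries labelled Pax6 cKO, and the 10 on the list summed to 5.18 to 8.43 CPM in BAF155 cKO, 7.42 to 8.48 CPM in the libraries labelled Pax6 cKO, and 5.37 to 7.2 CPM in the controls. No marker of these lists was at 0 in all 12 libraries. In bulk RNA fewer cells of a type and less RNA per cell cannot be told apart, and the part of these markers in the channel results was not tested.

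**Figure D1:**
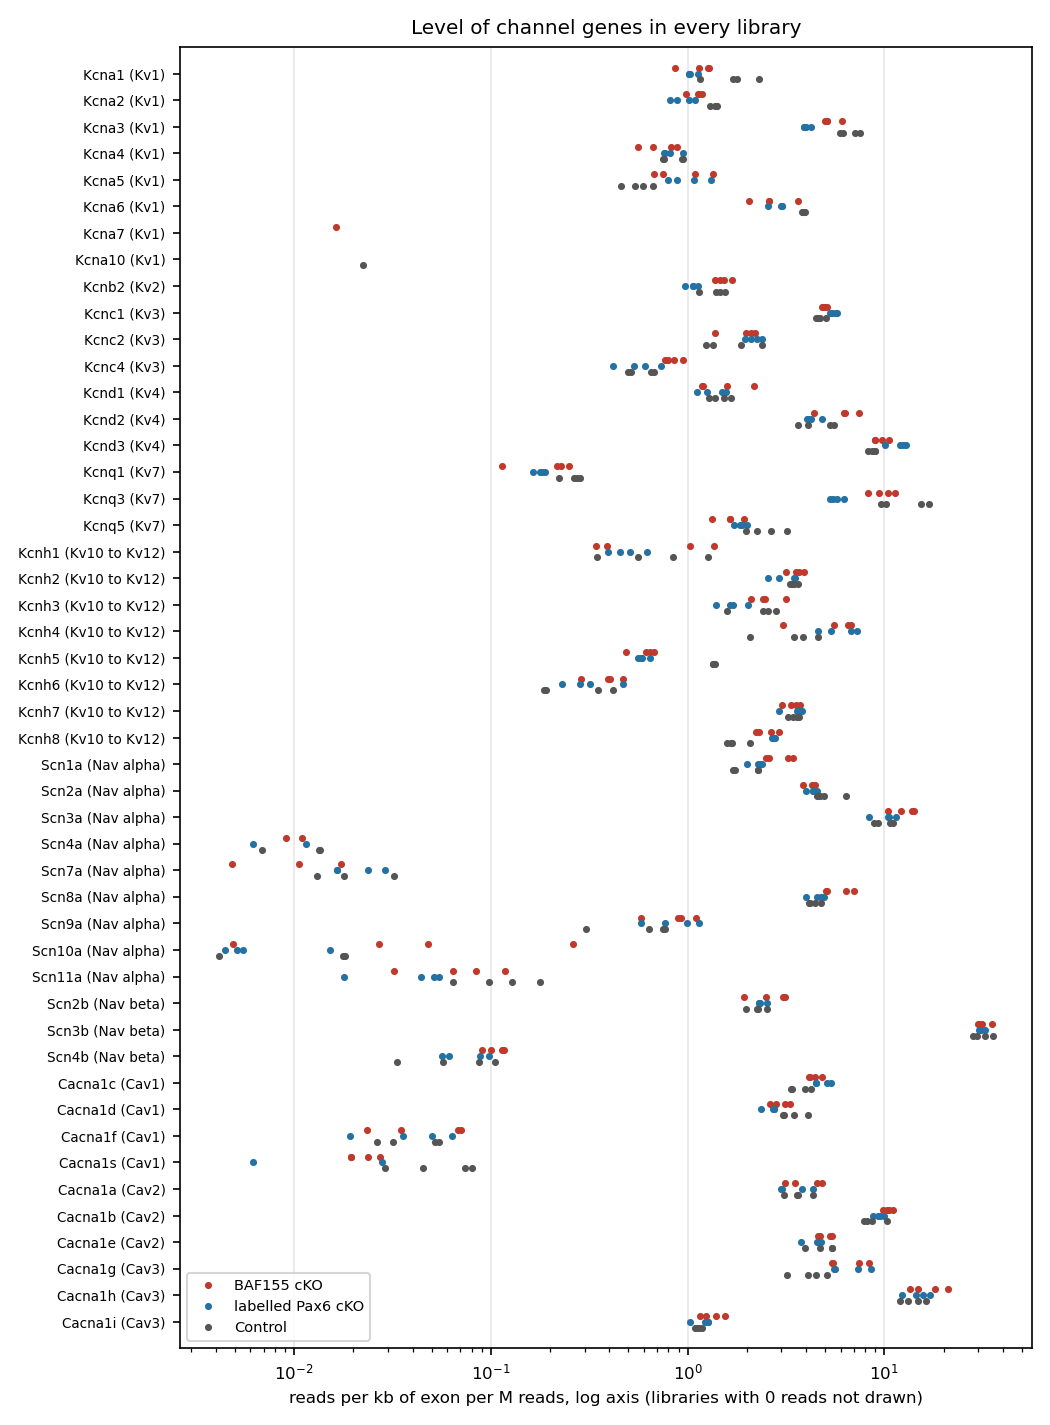
Level of the channel genes in every library, as reads per kb of exon per M reads (RPKM) on a log axis, 1 point per library, genes by subfamily and points coloured by group. Scn3b stood highest at a mean of 31.4 RPKM, and 9 genes lay below 0.1 RPKM.

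Taken per kb of exon, levels ran from 31.4 RPKM for Scn3b down to single reads. Averaged over the 12 libraries, 5 members were above 10 RPKM (among them Scn3b 31.4, Cacna1h 15.3, Scn3a 11.0 and Kcnd3 10.1), 31 lay between 1 and 10, 9 between 0.1 and 1, and 9 below 0.1. Within their subfamilies the highest included Kcna3 (Kv1), Kcnc1 (Kv3), Kcnd3 (Kv4), Kcnh4 (Kv10 to Kv12), Scn3a and Scn3b among sodium alpha and beta subunits, and Cacna1c, Cacna1b and Cacna1h among Cav1, Cav2 and Cav3. All members together took 0.184% to 0.227% of the reads in BAF155 cKO, 0.171% to 0.206% in the libraries labelled Pax6 cKO, and 0.176% to 0.208% in the controls. The 3 ranges overlapped. Summed by ion, potassium channels had 808 to 905 CPM in BAF155 cKO, 726 to 812 CPM in the libraries labelled Pax6 cKO, and 802 to 930.0 CPM in the controls.

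In BAF155 cKO against Control, 9 of the 48 tested members (18.8%) passed an adjusted p under 0.05, 5 higher and 4 lower, beside 13.6% of all 16511 genes tested (6.04% higher and 7.56% lower). Scn1a, Scn8a, Cacna1g and Kcnh8 were among those that rose, and Kcna1, Kcna6, Kcnq5 and Kcnh5 fell. In the libraries labelled Pax6 cKO against Control, 19 of 48 (39.6%) passed, 7 higher and 12 lower, beside 35.5% of all genes (16.6% higher and 18.9% lower). Here Kcna5, Kcnc1, Kcnd3, Kcnh4, Kcnh8, Cacna1c and Cacna1g rose, and Kcna1, Kcna2, Kcna3, Kcna6, Kcnb2, Kcnq3, Kcnq5, Kcnh3, Kcnh5, Scn11a and Cacna1d were among those that fell. Set directly against the libraries labelled Pax6 cKO, BAF155 cKO differed in 2 of 48 members (4.17%), both higher, beside 4.31% of all genes (2.3% higher and 2.01% lower). No member was lower in that contrast in the edgeR test of the 12 libraries by group alone. At an unadjusted p under 0.05, 2 were lower, with DESeq2 1 was, and after correction for GC content and exon length 2 were. After that correction 16 of the 48 members passed in BAF155 cKO, beside 13.4% of all genes. In the libraries labelled Pax6 cKO 17 passed, beside 29.2%, and in the direct contrast 6, beside 4.12%. In the edgeR test by group alone, the shares of members called were near those of all genes in each comparison. The median log2 fold change of the 48 members was 0.12 in BAF155 cKO and -0.02 in the libraries labelled Pax6 cKO, beside 0.01 and 0.02 over all genes tested, and 0.15 in the direct contrast, beside 0.01. These medians moved with the libraries and the correction used. The BAF155 cKO median was 0.044, 0.20 and 0.071 without BAF155 cKO 1, 2 and 4, and 0.072 and 0.057 without controls 2 and 4. The direct median was 0.076 without BAF155 cKO 1. After correction for GC content and exon length the medians were 0.21 in BAF155 cKO, 0.11 in the libraries labelled Pax6 cKO, where the sign turned, and 0.053 in the direct contrast. The comparisons with Control share the same controls, and their values are set side by side only.

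Among ions, 4 potassium channel genes fell and 1 rose of 28 tested in BAF155 cKO, and 10 fell and 5 rose in the libraries labelled Pax6 cKO. Of 11 sodium channel genes tested, 3 rose in BAF155 cKO and 1 fell in the libraries labelled Pax6 cKO. Of 9 calcium channel genes tested, 1 rose in BAF155 cKO, and 2 rose and 1 fell in the libraries labelled Pax6 cKO. In BAF155 cKO the shares called were 17.9%, 27.3% and 11.1% for potassium, sodium and calcium, beside 13.6% of all genes. In the libraries labelled Pax6 cKO they were 53.6%, 9.09% and 33.3%, beside 35.5%. The subfamily counts below are to be read beside the same shares of all genes. After correction for GC content and exon length the calls became 11 higher and 5 lower (68.8% higher, against 55.6%) in BAF155 cKO, and 10 higher and 7 lower (58.8% higher, against 36.8%) in the libraries labelled Pax6 cKO. Of all genes tested, 13.4% and 29.2% passed after that correction. The calls that held in every alternative run for their comparison were Kcnh5 and Scn1a in BAF155 cKO, and Kcna2, Kcna3, Kcnd3, Kcnq3, Kcnh5 and Kcnh8 in the libraries labelled Pax6 cKO. The other 7 and 13 calls were lost in at least 1 alternative, named with each gene described. Other members passed in an alternative but not in the edgeR test of the 12 libraries by group alone. These are also given gene by gene, and the first value in such a bracket is the log2 fold change under that alternative. With a term for sex, which sets each cKO against the 2 controls of its own sex, the members called were 7 higher and 4 lower in BAF155 cKO and 2 higher and 7 lower in the libraries labelled Pax6 cKO. The shares over all genes moved too, to 27.5% in BAF155 cKO and 10.7% in the libraries labelled Pax6 cKO. The male and female controls also differed in other ways, as given above, which this term cannot tell from sex.

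**Figure D2:**
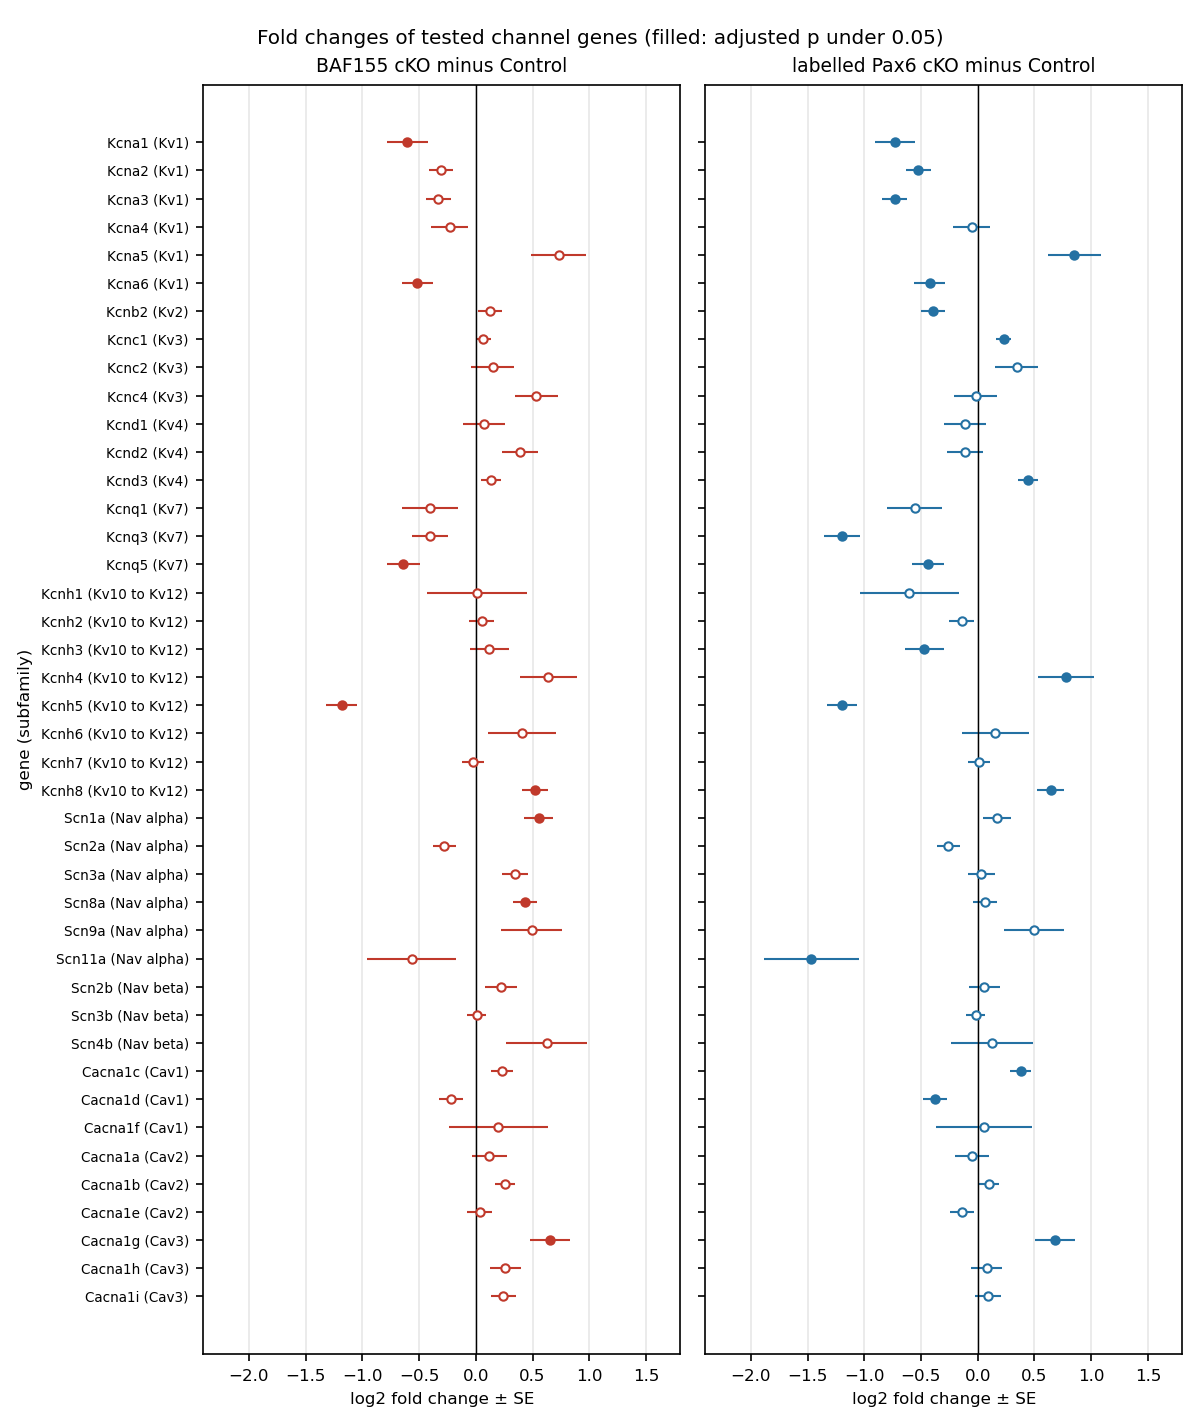
Log2 fold change ± SE of tested channel genes in BAF155 cKO minus Control (left) and labelled Pax6 cKO minus Control (right), genes by subfamily, filled points at adjusted p under 0.05. Kcnh5 lies at -1.18 on the left and -1.20 on the right, and Kcnq3 at -0.40 on the left, where it was not called, and -1.19 on the right.

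Kv1 subunits (Kcna) form the low-threshold delayed rectifiers of axons and terminals. Of the 6 tested, 2 fell in BAF155 cKO, and 4 fell and 1 rose in the libraries labelled Pax6 cKO. In each sentence of library values that follows, the 4 values of a group are those of libraries 1 to 4. Kcna3 (ENSMUSG00000047959, chr3:107036169-107038070, plus strand), whose channel is best known from T lymphocytes, had 9.67, 9.49, 9.7 and 11.6 CPM in the BAF155 cKO libraries, 7.59, 7.43, 8.05 and 7.42 CPM in those labelled Pax6 cKO, and 11.3, 13.5, 14.3 and 11.7 CPM in the controls. All 4 libraries labelled Pax6 cKO lay below every control and below every BAF155 cKO library, and Kcna3 fell in them (log2 fold change -0.73 ± 0.11 (SE), adjusted p = 0.000284). In BAF155 cKO, whose range overlapped that of the controls, it missed the threshold (log2 fold change -0.33 ± 0.11 (SE), adjusted p = 0.0585). It passed with DESeq2 (-0.33, adjusted p = 0.0351), after correction for GC content and length (-0.38, adjusted p = 0.0391) and without control 1 (-0.39, adjusted p = 0.0319). The direct contrast missed it too (log2 fold change 0.40 ± 0.11 (SE), adjusted p = 0.0543). That contrast passed with RLE size factors (0.41, adjusted p = 0.0488), with DESeq2 (0.41, adjusted p = 0.0166), with only the 8 libraries compared in the fit (0.42, adjusted p = 0.0446), after correction for GC content and length (0.47, adjusted p = 0.0329), without control 1 (0.42, adjusted p = 0.04) and without control 3 (0.40, adjusted p = 0.0498).

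Kcna2 (ENSMUSG00000040724, chr3:107101146-107115005, plus strand), a main partner of Kcna1 at the axon, had 13.6, 11.7, 13.4 and 14.2 CPM in the BAF155 cKO libraries, 12, 10.6, 12.9 and 9.74 CPM in those labelled Pax6 cKO, and 16.8, 15.49, 16.6 and 16.3 CPM in the controls. Both cKO groups lay below all controls. It fell in the libraries labelled Pax6 cKO (log2 fold change -0.52 ± 0.11 (SE), adjusted p = 0.0024), while the difference in BAF155 cKO missed the threshold (log2 fold change -0.30 ± 0.11 (SE), adjusted p = 0.0689) in edgeR and passed with DESeq2 (-0.31, adjusted p = 0.0403). Kcna1 (ENSMUSG00000047976, chr6:126640397-126646384, minus strand), mutated in episodic ataxia, had 6.13, 5.46, 4.12 and 6.07 CPM in the BAF155 cKO libraries, 5.4, 4.88, 4.94 and 4.85 CPM in those labelled Pax6 cKO, and 8.49, 5.54, 11.1 and 8.17 CPM in the controls. Control 2, at 5.54 CPM, lay within the BAF155 cKO range, whereas all libraries labelled Pax6 cKO were below the controls. Kcna1 fell in BAF155 cKO (log2 fold change -0.61 ± 0.18 (SE), adjusted p = 0.0383) and in the libraries labelled Pax6 cKO (log2 fold change -0.73 ± 0.18 (SE), adjusted p = 0.00655). The BAF155 cKO call was lost without library BAF155 cKO 1, 3 or 4, labelled Pax6 cKO 1, 3 or 4, or control 3 or 4 (with adjusted p between 0.0506 and 0.136), and in limma-voom (-0.57, adjusted p = 0.0558), with only the 8 libraries compared in the fit (-0.60, adjusted p = 0.1), with the replicate block (-0.58, adjusted p = 0.0553), with only the lane 1 libraries of BAF155 cKO (-0.51, adjusted p = 0.205) and with only the lane 3 libraries of BAF155 cKO (-0.71, adjusted p = 0.0646). The call in the libraries labelled Pax6 cKO was lost with a term for sex (-0.49, adjusted p = 0.11).

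Kcna6 (ENSMUSG00000038077, chr6:126708329-126740674, minus strand) had 12.2, 15.3, 21.8 and 15.4 CPM in the BAF155 cKO libraries, 15.2, 17.9, 17.9 and 17.6 CPM in those labelled Pax6 cKO, and 23.4, 23, 22.6 and 23 CPM in the controls. The controls agreed within 1 CPM and lay above all 8 other libraries. Kcna6 fell in BAF155 cKO (log2 fold change -0.51 ± 0.14 (SE), adjusted p = 0.0229) and in the libraries labelled Pax6 cKO (log2 fold change -0.42 ± 0.13 (SE), adjusted p = 0.0233). The BAF155 cKO call was lost without library BAF155 cKO 1 or 4 (with adjusted p between 0.0601 and 0.0666), and with only the 8 libraries compared in the fit (-0.51, adjusted p = 0.0667) and with only the lane 3 libraries of BAF155 cKO (-0.31, adjusted p = 0.122). The other call was lost without library labelled Pax6 cKO 1, or control 4 (with adjusted p between 0.0503 and 0.0746), and after correction for GC content and length (-0.31, adjusted p = 0.0975) and with a term for sex (-0.43, adjusted p = 0.0934). The kit does not mark strand, and 2355 bases of Kcna6 exons overlap Gm26673 on the opposite strand, so reads of the 2 genes cannot be told apart there. Kcna5 (ENSMUSG00000045534, chr6:126532551-126535412, minus strand), which carries the ultrarapid current of the atrium, went the other way, with 2.14, 1.93, 3.11 and 3.83 CPM in the BAF155 cKO libraries, 3.07, 2.52, 3.75 and 2.27 CPM in those labelled Pax6 cKO, and 1.55, 1.71, 1.3 and 1.91 CPM in the controls. Both cKO groups lay above all controls. It rose in the libraries labelled Pax6 cKO (log2 fold change 0.85 ± 0.24 (SE), adjusted p = 0.012), and in BAF155 cKO it missed the threshold (log2 fold change 0.73 ± 0.24 (SE), adjusted p = 0.0556). In BAF155 cKO it passed with DESeq2 (0.73, adjusted p = 0.0335), with only the lane 3 libraries of BAF155 cKO (1.09, adjusted p = 0.0126) and without BAF155 cKO 2 (0.88, adjusted p = 0.0189). The call in the libraries labelled Pax6 cKO was lost without library labelled Pax6 cKO 3 (with adjusted p = 0.0508), and with a term for sex (0.85, adjusted p = 0.0789).

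Kcna4, the A-type member of the subfamily, had 2.72 to 4.28 CPM in BAF155 cKO, 3.67 to 4.59 CPM in the libraries labelled Pax6 cKO, and 3.63 to 4.59 CPM in the controls, and passed in no comparison. Kcna7 and Kcna10 had a single read each over all 12 libraries. A count of 0 allows up to 0.0936 to 0.198 CPM, depending on the library, counting error only. Kcna1, Kcna5 and Kcna6 stand together at chr6:126532551-126740674, and Kcna2, Kcna3 and Kcna10 with Kcnc4 at chr3:107036169-107459552. Kcna5 and its neighbours on chromosome 6 thus differed in the sign of their change in the libraries labelled Pax6 cKO.

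Kv2 subunits (Kcnb) carry much of the delayed rectifier current of the soma of cortical pyramidal neurons. Kcnb2 (ENSMUSG00000092083, chr1:15287254-15723750, plus strand) had 23.2, 25.5, 22.3 and 21 CPM in the BAF155 cKO libraries, 17.2, 14.8, 16.1 and 16.2 CPM in those labelled Pax6 cKO, and 21.3, 17.4, 22.1 and 23.6 CPM in the controls. The libraries labelled Pax6 cKO lay below every control and every BAF155 cKO library, while BAF155 cKO and the controls overlapped. Kcnb2 fell in the libraries labelled Pax6 cKO (log2 fold change -0.39 ± 0.10 (SE), adjusted p = 0.00949) and was higher in BAF155 cKO than in them (log2 fold change 0.52 ± 0.10 (SE), adjusted p = 0.0106). The call against Control was lost with a term for sex (-0.27, adjusted p = 0.141). The direct call was lost with a term for sex (0.28, adjusted p = 0.785) and with only the lane 3 libraries of BAF155 cKO (0.44, adjusted p = 0.131).

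Kv3 subunits (Kcnc) repolarize the spike fast and are known for fast-spiking interneurons. Of 4 tested, 1 rose in the libraries labelled Pax6 cKO. Kcnc1 (ENSMUSG00000058975, chr7:46396497-46438704, plus strand) had 48.1, 45.5, 46.1 and 47.3 CPM in the BAF155 cKO libraries, 53.3, 50.2, 54.3 and 51.2 CPM in those labelled Pax6 cKO, and 47.7, 44.7, 43.8 and 42.4 CPM in the controls. The libraries labelled Pax6 cKO lay above both other groups, and the rise was small (log2 fold change 0.23 ± 0.07 (SE), adjusted p = 0.0187). The Kcnc1 call was lost without library labelled Pax6 cKO 1 or 3, or control 3 or 4 (with adjusted p between 0.0509 and 0.0692), and without a filter on low counts (0.22, adjusted p = 0.111) and with a term for sex (0.18, adjusted p = 0.163). Kcnc2 had 9.81 to 15.6 CPM in BAF155 cKO, 13.98 to 17.0 CPM in the libraries labelled Pax6 cKO, and 8.84 to 17.0 CPM in the controls. Kcnc4 had 2.81 to 3.49 CPM in BAF155 cKO, 1.53 to 2.68 CPM in the libraries labelled Pax6 cKO, and 1.82 to 2.47 CPM in the controls. Neither was called in any comparison in the edgeR test by group alone. Kcnc2 was higher in BAF155 cKO than in Control with a term for sex (0.56, adjusted p = 0.0292), and in the libraries labelled Pax6 cKO without control 1 (0.53, adjusted p = 0.0213). Kcnc4 was higher in BAF155 cKO than in Control after correction for GC content and length (0.59, adjusted p = 0.0373).

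Kv4 subunits (Kcnd) carry the A-type current that delays firing in dendrites. Kcnd3 (ENSMUSG00000040896, chr3:105452330-105674002, plus strand) had 93.9, 85.9, 86.2 and 102 CPM in the BAF155 cKO libraries, 124, 96.6, 119 and 115 CPM in those labelled Pax6 cKO, and 85.8, 86.5, 79 and 83.5 CPM in the controls. All libraries labelled Pax6 cKO lay above all controls, and BAF155 cKO overlapped with the controls. Kcnd3 rose in the libraries labelled Pax6 cKO (log2 fold change 0.44 ± 0.09 (SE), adjusted p = 0.002), and its difference in BAF155 cKO did not pass (log2 fold change 0.13 ± 0.09 (SE), adjusted p = 0.289). The direct contrast missed the threshold (log2 fold change -0.31 ± 0.09 (SE), adjusted p = 0.0582). It passed with DESeq2 (-0.30, adjusted p = 0.0176), after correction for GC content and length (-0.39, adjusted p = 0.0289), without BAF155 cKO 4 (-0.36, adjusted p = 0.0371) and without labelled Pax6 cKO 2 (-0.38, adjusted p = 0.0305). Kcnd2 had 22.6 to 38.4 CPM in BAF155 cKO, 20.8 to 24.9 CPM in the libraries labelled Pax6 cKO, and 18.8 to 28.7 CPM in the controls, and Kcnd1 had 6.28 to 11.5, 5.89 to 8.32 and 6.78 to 8.82 CPM. Neither was called in any comparison in the edgeR test by group alone. Kcnd2 was higher in BAF155 cKO than in Control with only the lane 3 libraries of BAF155 cKO (0.57, adjusted p = 0.0306) and without BAF155 cKO 1 (0.52, adjusted p = 0.0315). It was higher in BAF155 cKO than in the libraries labelled Pax6 cKO with DESeq2 (0.51, adjusted p = 0.0282), with only the 8 libraries compared in the fit (0.52, adjusted p = 0.0451), with only the lane 3 libraries of BAF155 cKO (0.69, adjusted p = 0.0407), without BAF155 cKO 1 (0.64, adjusted p = 0.0251) and without control 1 (0.52, adjusted p = 0.0463).

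Kv7 subunits (Kcnq) carry the M-current, which muscarinic receptors close and whose loss causes neonatal epilepsy. Of 5 tested, 1 fell in BAF155 cKO and 2 fell in the libraries labelled Pax6 cKO. Kcnq3 (ENSMUSG00000056258, chr15:65986387-66286642, minus strand), a subunit of the neuronal M-channel, had 153, 166, 138 and 121 CPM in the BAF155 cKO libraries, 84.3, 77.6, 80.8 and 91.7 CPM in those labelled Pax6 cKO, and 150.3, 142, 248 and 225 CPM in the controls. The libraries labelled Pax6 cKO lay below all others. Among controls the female libraries 3 and 4, at 248 and 225 CPM, stood above the male libraries 1 and 2, at 150.3 and 142 CPM, and the all-female BAF155 cKO libraries overlapped with the male controls only. Kcnq3 fell in the libraries labelled Pax6 cKO (log2 fold change -1.19 ± 0.16 (SE), adjusted p = 0.000105) in every alternative. In BAF155 cKO it missed the threshold (log2 fold change -0.40 ± 0.16 (SE), adjusted p = 0.0919), while it fell with a term for sex (-0.71, adjusted p = 0.000711), without control 1 (-0.51, adjusted p = 0.035) and without control 2 (-0.53, adjusted p = 0.0363). The direct contrast was higher in BAF155 cKO (log2 fold change 0.79 ± 0.16 (SE), adjusted p = 0.0107). The direct call was lost with a term for sex (0.10, adjusted p = 0.881) and with only the lane 3 libraries of BAF155 cKO (0.64, adjusted p = 0.142).

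Kcnq5 (ENSMUSG00000028033, chr1:21398403-21961942, minus strand) had 12.6, 10.2, 14.8 and 12.6 CPM in the BAF155 cKO libraries, 13.3, 15.4, 14.3 and 14.6 CPM in those labelled Pax6 cKO, and 24.8, 20.4, 17.4 and 15.2 CPM in the controls. The BAF155 cKO libraries were all below the controls, and labelled Pax6 cKO 2 overlapped with control 4. Kcnq5 fell in BAF155 cKO (log2 fold change -0.64 ± 0.14 (SE), adjusted p = 0.0103) and in the libraries labelled Pax6 cKO (log2 fold change -0.44 ± 0.14 (SE), adjusted p = 0.026). The BAF155 cKO call was lost with a term for sex (-0.38, adjusted p = 0.0556) and with only the lane 3 libraries of BAF155 cKO (-0.51, adjusted p = 0.0607). The other call was lost without library labelled Pax6 cKO 1, 3 or 4, or control 1 (with adjusted p between 0.0519 and 0.0725), and after correction for GC content and length (-0.33, adjusted p = 0.116). Kcnq1, the cardiac member, had 0.466 to 1.02 CPM in BAF155 cKO, 0.671 to 0.772 CPM in the libraries labelled Pax6 cKO, and 0.908 to 1.16 CPM in the controls. It was not called in the edgeR test by group alone. Kcnq1 fell in the libraries labelled Pax6 cKO with only the 8 libraries compared in the fit (-0.56, adjusted p = 0.0453) and without BAF155 cKO 1 (-0.56, adjusted p = 0.0412). Why it passed in these runs was not tested.

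The Kcnh genes encode the ether-a-go-go family (Kv10, Kv11 and Kv12), of which Kcnh2 (hERG) is known from cardiac repolarization. All 8 were tested. In BAF155 cKO 1 rose and 1 fell, and in the libraries labelled Pax6 cKO 2 rose and 2 fell. Kcnh5 fell and Kcnh8 rose in both comparisons, and their RefSeq promoters (GRCm38.p6, 250 bases before to 50 after the start) are given to show the sequence context of both, 5′ to 3′ on the gene's strand, with CG dinucleotides in capitals. Kcnh5 lies at chr12:75177283-75177582 on the minus strand and Kcnh8 at chr17:52602459-52602758 on the plus strand.
Kcnh5: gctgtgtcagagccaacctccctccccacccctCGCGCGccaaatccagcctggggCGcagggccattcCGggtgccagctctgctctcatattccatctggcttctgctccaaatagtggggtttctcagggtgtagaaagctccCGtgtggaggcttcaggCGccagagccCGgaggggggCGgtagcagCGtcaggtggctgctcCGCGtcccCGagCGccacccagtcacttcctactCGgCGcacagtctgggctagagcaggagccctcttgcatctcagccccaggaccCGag
Kcnh8: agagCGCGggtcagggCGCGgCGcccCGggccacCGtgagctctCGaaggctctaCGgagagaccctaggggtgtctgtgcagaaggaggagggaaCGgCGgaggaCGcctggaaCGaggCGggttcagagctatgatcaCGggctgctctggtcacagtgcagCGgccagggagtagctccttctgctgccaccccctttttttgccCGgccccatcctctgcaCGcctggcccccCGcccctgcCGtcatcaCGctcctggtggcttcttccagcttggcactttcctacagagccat
The Kcnh5 promoter holds 17 CG dinucleotides at 65.3% GC, and that of Kcnh8 holds 21 at 66.0% GC.

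Kcnh5 (ENSMUSG00000034402, chr12:74897220-75177332, minus strand), which encodes Kv10.2, had 1.98, 2.5, 2.73 and 2.62 CPM in the BAF155 cKO libraries, 2.37, 2.27, 2.38 and 2.62 CPM in those labelled Pax6 cKO, and 5.49, 5.59, 5.56 and 5.49 CPM in the controls. The 4 controls lay within 0.1 CPM of each other, and all 8 cKO libraries lay at 1.98 to 2.73 CPM. Kcnh5 fell in BAF155 cKO (log2 fold change -1.18 ± 0.14 (SE), adjusted p = 5.05e-05) and in the libraries labelled Pax6 cKO (log2 fold change -1.20 ± 0.13 (SE), adjusted p = 1.98e-05), and the direct contrast did not pass (log2 fold change 0.02 ± 0.14 (SE), adjusted p = 0.994). Both calls held in every alternative. Kcnh8 (ENSMUSG00000035580, chr17:52602709-52979194, plus strand), which encodes Kv12.1, had 10.2, 10.6, 13.3 and 12.1 CPM in the BAF155 cKO libraries, 12.7, 12.4, 12.2 and 12.6 CPM in those labelled Pax6 cKO, and 7.7, 9.52, 7.2 and 7.6 CPM in the controls. Every cKO library exceeded every control. It rose in BAF155 cKO (log2 fold change 0.52 ± 0.12 (SE), adjusted p = 0.0101) and in the libraries labelled Pax6 cKO (log2 fold change 0.64 ± 0.12 (SE), adjusted p = 0.00116). The BAF155 cKO call was lost with only the lane 1 libraries of BAF155 cKO (0.39, adjusted p = 0.131).

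The other Kv12 genes, Kcnh3 and Kcnh4, passed the threshold against Control in the libraries labelled Pax6 cKO and not in BAF155 cKO, and in the edgeR test by group alone the direct contrast passed for neither. Kcnh4 (ENSMUSG00000035355, chr11:100740376-100759942, minus strand) had 26.9, 12.1, 21.9 and 25.8 CPM in the BAF155 cKO libraries, 28.7, 21.2, 26.8 and 18.2 CPM in those labelled Pax6 cKO, and 15.2, 18.3, 8.17 and 13.8 CPM in the controls. Labelled Pax6 cKO 4, at 18.2 CPM, lay below control 2, at 18.3 CPM, so the groups overlapped. Kcnh4 rose (log2 fold change 0.78 ± 0.25 (SE), adjusted p = 0.0258), and in BAF155 cKO it did not pass (log2 fold change 0.64 ± 0.25 (SE), adjusted p = 0.0977), with library 2 at 12.1 CPM the lowest of its group. In BAF155 cKO it passed with a term for sex (0.98, adjusted p = 0.0379) and without BAF155 cKO 2 (0.84, adjusted p = 0.0144). The call in the libraries labelled Pax6 cKO was lost without library labelled Pax6 cKO 1 or 3, or control 3 or 4 (with adjusted p between 0.0632 and 0.0819), and without a filter on low counts (0.77, adjusted p = 0.124) and with a term for sex (0.51, adjusted p = 0.293).

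Kcnh3 (ENSMUSG00000037579, chr15:99224861-99242817, plus strand) had 18.2, 14.2, 12.1 and 13.9 CPM in the BAF155 cKO libraries, 9.82, 11.6, 9.51 and 7.99 CPM in those labelled Pax6 cKO, and 13.9, 9.14, 16.2 and 14.7 CPM in the controls. Control 2, at 9.14 CPM, lay among the libraries labelled Pax6 cKO. Kcnh3 fell in these libraries (log2 fold change -0.47 ± 0.17 (SE), adjusted p = 0.0429). The Kcnh3 call was lost without library labelled Pax6 cKO 1, 3 or 4, or control 1, 3 or 4 (with adjusted p between 0.0517 and 0.139), and in limma-voom (-0.45, adjusted p = 0.0535), with the replicate block (-0.46, adjusted p = 0.0626), after correction for GC content and length (-0.31, adjusted p = 0.0982) and with a term for sex (-0.25, adjusted p = 0.414). The direct contrast missed the threshold (log2 fold change 0.59 ± 0.17 (SE), adjusted p = 0.0631). It was higher in BAF155 cKO with DESeq2 (0.60, adjusted p = 0.0179), with only the 8 libraries compared in the fit (0.60, adjusted p = 0.0249), after correction for GC content and length (0.56, adjusted p = 0.0333) and without control 2 (0.60, adjusted p = 0.0257). Kcnh2 had 15.3 to 18.9 CPM in BAF155 cKO, 12.4 to 17.1 CPM in the libraries labelled Pax6 cKO, and 16.0 to 17.6 CPM in the controls. Kcnh7 had 45.8 to 56.8, 44.1 to 57.8 and 49.0 to 56.1 CPM, and Kcnh6 had 1.01 to 1.66, 0.812 to 1.66 and 0.663 to 1.49 CPM, in the same order. Kcnh1, which encodes Kv10.1, had 2.52, 2.85, 9.96 and 7.53 CPM in the BAF155 cKO libraries, 3.32, 4.55, 2.9 and 3.75 CPM in those labelled Pax6 cKO, and 2.54, 9.33, 4.11 and 6.21 CPM in the controls. The BAF155 cKO libraries of lane 1 stood at 2.52 and 2.85 CPM and those of lane 3 at 9.96 and 7.53 CPM, and the controls, all of lane 8, spanned 2.54 to 9.33 CPM. These 4 genes passed in no comparison.

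**Figure D3:**
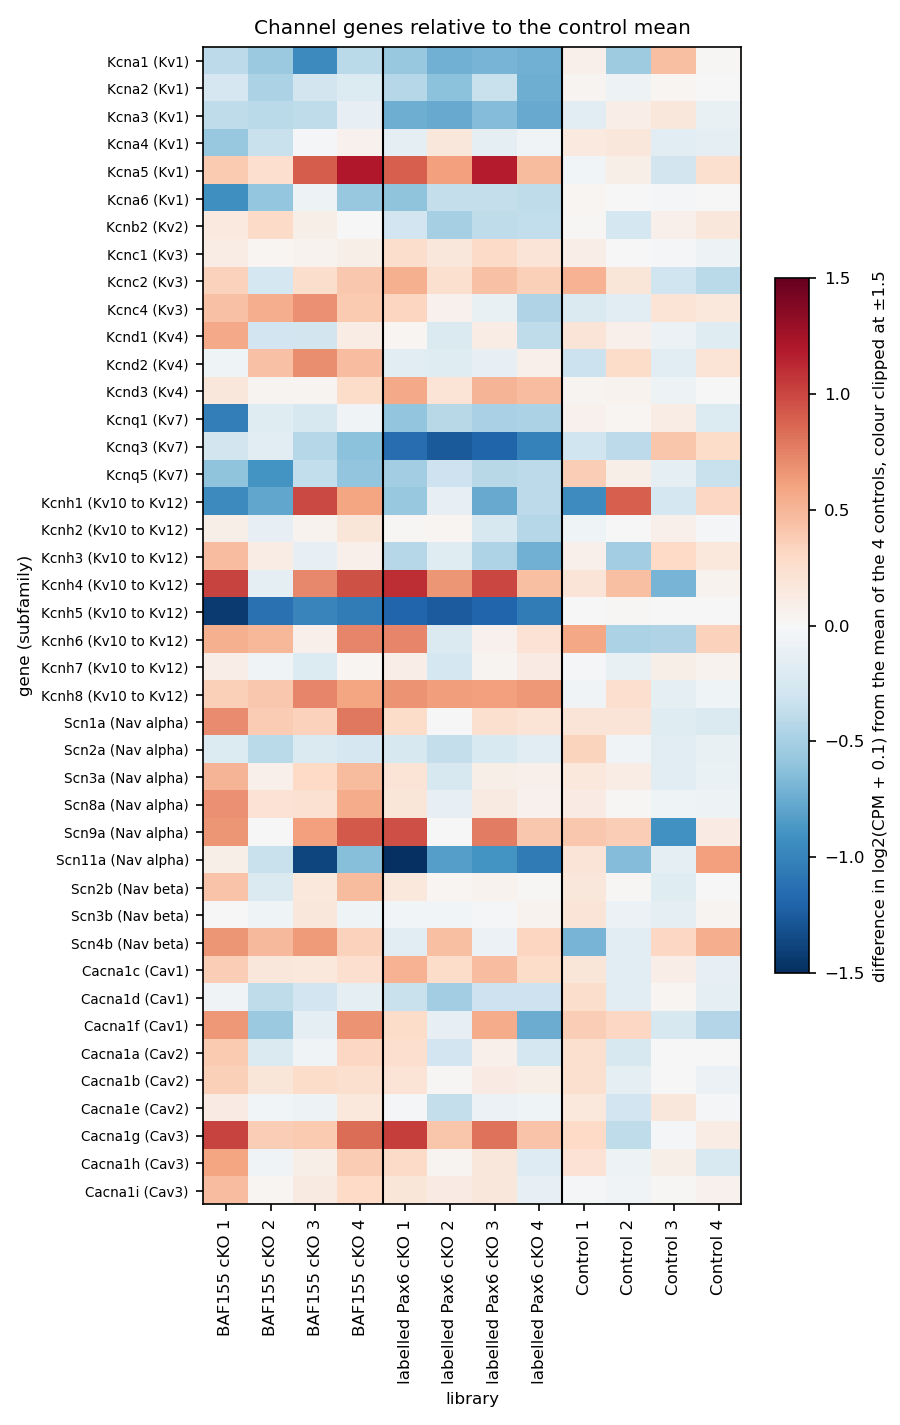
Difference of tested channel genes in each library from the mean of the 4 controls, on the log2(CPM + 0.1) scale, colour clipped at 1.5 in either direction, genes by subfamily in rows and libraries in columns. Kcnh5 is lower in all 8 cKO libraries, and Kcnq3 is lower in the 4 libraries labelled Pax6 cKO than in any other library.

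Sodium channel alpha subunits (Scn1a to Scn11a) form the pore of the fast sodium current. Of 7 tested, 3 rose in BAF155 cKO, and 1 fell in the libraries labelled Pax6 cKO. Scn1a, mutated in Dravet syndrome and known for its role in inhibitory interneurons, is the sodium channel gene whose call held in every alternative, and its RefSeq promoter (GRCm38.p6, chr2:66440788-66441087, minus strand) is shown for comparison with those of the Kcnh genes, again with CG dinucleotides in capitals.
Scn1a: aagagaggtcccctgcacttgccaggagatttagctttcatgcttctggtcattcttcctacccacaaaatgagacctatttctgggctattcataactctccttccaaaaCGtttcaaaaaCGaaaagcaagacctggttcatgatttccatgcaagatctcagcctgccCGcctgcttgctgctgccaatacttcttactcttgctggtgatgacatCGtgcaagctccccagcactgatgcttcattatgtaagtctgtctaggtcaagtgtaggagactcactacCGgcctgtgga
It holds 5 CG dinucleotides at 47.3% GC, fewer than the Kcnh5 and Kcnh8 promoters.

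Scn1a (ENSMUSG00000064329, chr2:66270778-66440840, minus strand) had 35.9, 28.7, 27.9 and 38.3 CPM in the BAF155 cKO libraries, 26.7, 22.1, 25.9 and 25.4 CPM in those labelled Pax6 cKO, and 25.3, 25.2, 19.4 and 19 CPM in the controls. Each BAF155 cKO library exceeded every control and every library labelled Pax6 cKO. Scn1a rose in BAF155 cKO (log2 fold change 0.56 ± 0.13 (SE), adjusted p = 0.0107), and in the libraries labelled Pax6 cKO it did not pass (log2 fold change 0.17 ± 0.13 (SE), adjusted p = 0.303). The direct contrast missed the threshold in edgeR (log2 fold change 0.38 ± 0.13 (SE), adjusted p = 0.094) and passed with DESeq2 (0.39, adjusted p = 0.042). Within BAF155 cKO, libraries 1 and 4 were the highest. GABAergic neurons express Scn1a prominently after birth. Of the 12 markers of GABAergic neurons and ventral telencephalon, 9 rose in each cKO group, as given above. In BAF155 cKO, Lhx6 (log2 fold change -0.02, adjusted p = 0.871), Npy (-0.12, adjusted p = 0.779) and Dlx2 (0.55, adjusted p = 0.0693) did not pass. The part of these markers in the Scn1a level was not tested.

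Scn8a (ENSMUSG00000023033, chr15:100869858-101045938, plus strand), the channel of the mature axon initial segment, had 111, 80.1, 81 and 102 CPM in the BAF155 cKO libraries, 78.3, 63.1, 75.7 and 71.9 CPM in those labelled Pax6 cKO, and 75, 69.8, 66 and 65.5 CPM in the controls. BAF155 cKO lay above all other libraries, with libraries 1 and 4 apart from 2 and 3. Scn8a rose in BAF155 cKO (log2 fold change 0.44 ± 0.11 (SE), adjusted p = 0.0171) and did not pass in the libraries labelled Pax6 cKO (log2 fold change 0.06 ± 0.11 (SE), adjusted p = 0.665), where it was higher after correction for GC content and length (0.35, adjusted p = 0.0407). The Scn8a call was lost without library BAF155 cKO 1 or 4, or control 3 or 4 (with adjusted p between 0.0506 and 0.0582), and with only the lane 1 libraries of BAF155 cKO (0.48, adjusted p = 0.0508). The direct contrast missed the threshold (log2 fold change 0.37 ± 0.11 (SE), adjusted p = 0.0636). BAF155 cKO was higher in that contrast with DESeq2 (0.38, adjusted p = 0.0196), without BAF155 cKO 2 (0.44, adjusted p = 0.0415), without BAF155 cKO 3 (0.44, adjusted p = 0.0468) and without control 1 (0.38, adjusted p = 0.0492).

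Scn11a (ENSMUSG00000034115, chr9:119753759-119825456, minus strand), known from nociceptors, was near the floor, with 0.699, 0.5, 0.19 and 0.383 CPM in the BAF155 cKO libraries, 0.106, 0.325, 0.305 and 0.262 CPM in those labelled Pax6 cKO, and 0.76, 0.379, 0.58 and 1.05 CPM in the controls. The libraries labelled Pax6 cKO were all below the controls. It fell in these libraries (log2 fold change -1.47 ± 0.42 (SE), adjusted p = 0.0138). The Scn11a call was lost without library control 4 (with adjusted p = 0.055), and with a term for sex (-1.23, adjusted p = 0.12). It was not tested at a minimum of 1 CPM in 4 libraries or with only the 8 libraries compared.

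Scn3a (ENSMUSG00000057182, chr2:65457118-65567627, minus strand), the main sodium channel of the embryonic brain, had 176, 131, 152 and 173 CPM in the BAF155 cKO libraries, 143, 105, 132 and 131 CPM in those labelled Pax6 cKO, and 138, 134, 110.4 and 116 CPM in the controls. At 11.0 RPKM it was the highest alpha subunit. BAF155 cKO 2, at 131 CPM, lay within the control range, and the rise over Control missed the threshold (log2 fold change 0.34 ± 0.12 (SE), adjusted p = 0.059). It passed with DESeq2 (0.34, adjusted p = 0.0344), after correction for GC content and length (0.38, adjusted p = 0.0439), with a term for sex (0.48, adjusted p = 0.0147), without BAF155 cKO 2 (0.42, adjusted p = 0.0153), without control 1 (0.39, adjusted p = 0.0404) and without labelled Pax6 cKO 2 (0.34, adjusted p = 0.0471). Scn2a, which dominates early axon initial segments, had 56.3, 48.9, 55.9 and 54.5 CPM in the BAF155 cKO libraries, 55, 50.6, 55.4 and 57.5 CPM in those labelled Pax6 cKO, and 81.3, 62.5, 57.4 and 60.1 CPM in the controls. BAF155 cKO lay below all controls, and neither difference passed (BAF155 cKO, log2 fold change -0.28 ± 0.10 (SE), adjusted p = 0.0767; labelled Pax6 cKO, -0.26 ± 0.10 (SE), adjusted p = 0.0572). Scn2a fell in the libraries labelled Pax6 cKO with RLE size factors (-0.27, adjusted p = 0.0483), with DESeq2 (-0.27, adjusted p = 0.0389), with a term for sex (-0.40, adjusted p = 0.0237) and without control 3 (-0.32, adjusted p = 0.0404).

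Scn9a had 7.39 to 14.2 CPM in BAF155 cKO, 7.39 to 14.7 CPM in the libraries labelled Pax6 cKO, and 3.92 to 9.88 CPM in the controls, and did not pass. The remaining 3 alpha subunits were not tested. Scn4a, the skeletal muscle channel, had at most 2 reads in any library, and Scn7a at most 6. Scn10a, known from nociceptors, had 1, 6, 33 and 6 reads in BAF155 cKO, 1, 1, 4 and 1 reads in the libraries labelled Pax6 cKO, and 1, 3, 3 and 0 reads in the controls. Its 33 reads, 2.09 CPM, came from BAF155 cKO 3 alone. Scn3a, Scn2a, Scn1a, Scn9a and Scn7a lie together at chr2:65457118-66784914. Of their transcript 50-base stretches, 8.53% of Scn3a, 7.75% of Scn2a, 5.53% of Scn9a and 5.48% of Scn1a recur in another gene, so a small part of their reads may be hard to assign.

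The sodium beta subunits tune gating and act in cell adhesion. None of the 4 passed in any comparison in the edgeR test by group alone, none did at an unadjusted p under 0.05, and none with DESeq2. Scn3b (ENSMUSG00000049281, chr9:40269217-40291618, plus strand), the highest member per kb of exon at 31.4 RPKM, had 170.4, 164, 193 and 165 CPM in the BAF155 cKO libraries, 166, 166, 169 and 178 CPM in those labelled Pax6 cKO, and 196, 162, 155 and 176 CPM in the controls. The groups overlapped, with log2 fold changes of 0.01 ± 0.09 (SE) in BAF155 cKO and -0.02 ± 0.09 (SE) in the libraries labelled Pax6 cKO. Scn2b had 9.03 to 14.6 CPM in BAF155 cKO, 10.7 to 11.8 CPM in the libraries labelled Pax6 cKO, and 9.28 to 11.9 CPM in the controls. Scn4b had 0.447 to 0.582 CPM in BAF155 cKO, 0.283 to 0.487 CPM in the libraries labelled Pax6 cKO, and 0.165 to 0.525 CPM in the controls. Scn2b was higher in BAF155 cKO than in Control without BAF155 cKO 2 (0.35, adjusted p = 0.0423).

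**Figure D4:**
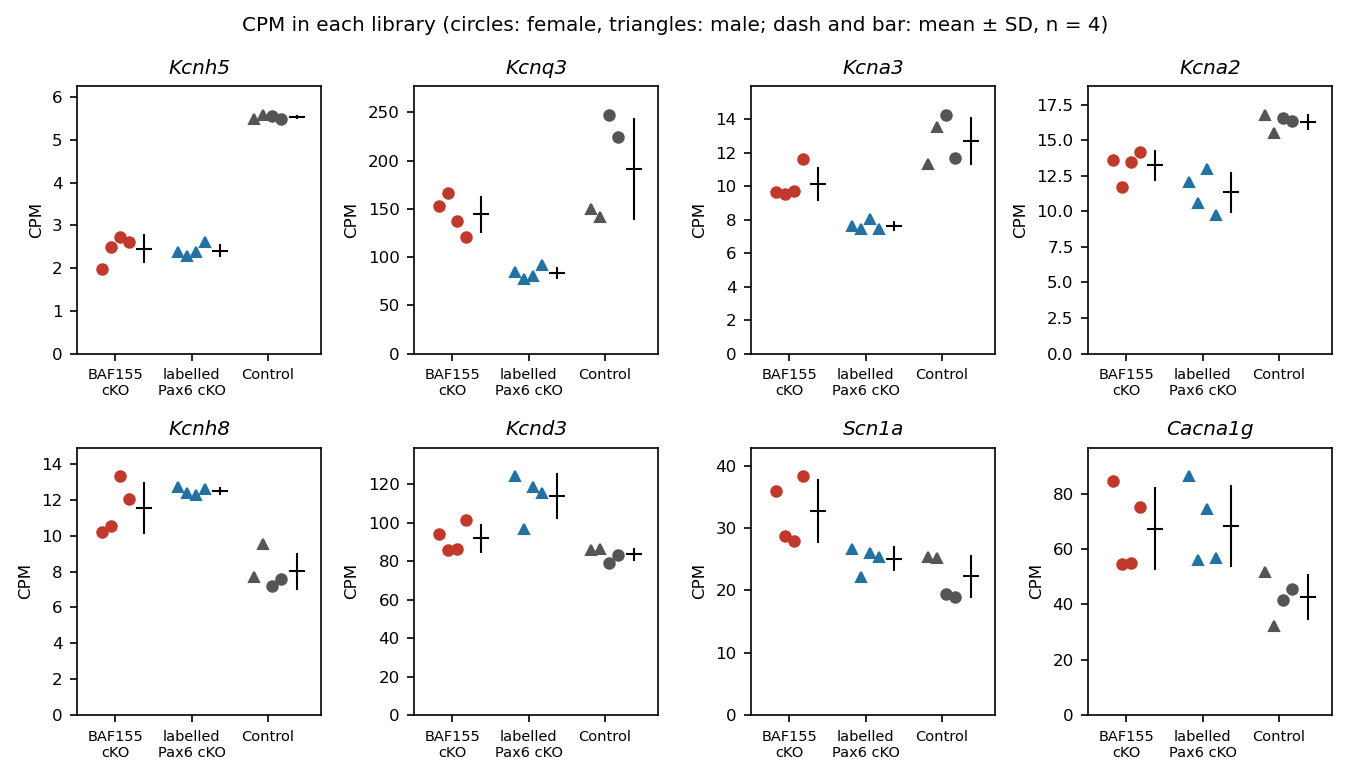
CPM of 8 channel genes in each library, groups on the horizontal axis in the order BAF155 cKO, labelled Pax6 cKO and Control, circles for female and triangles for male libraries, with dash and bar for the mean ± SD (n = 4). Kcnh5 shows controls at 5.49 to 5.59 CPM above all other libraries, and Kcnq3 shows the female controls above the male controls.

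Calcium channels of the Cav1 subfamily (Cacna1c, d, f and s) carry L-type currents that signal to the nucleus. Cacna1c (ENSMUSG00000051331, chr6:118587240-119196418, minus strand), mutated in Timothy syndrome, had 102, 88.4, 87.7 and 94.2 CPM in the BAF155 cKO libraries, 113, 95.1, 108 and 95.6 CPM in those labelled Pax6 cKO, and 89.8, 70.8, 84.2 and 72.2 CPM in the controls. The libraries labelled Pax6 cKO were all above the controls. Cacna1c rose in them (log2 fold change 0.38 ± 0.09 (SE), adjusted p = 0.00702) and did not pass in BAF155 cKO (log2 fold change 0.23 ± 0.09 (SE), adjusted p = 0.108). In BAF155 cKO it was higher than in Control after correction for GC content and length (0.35, adjusted p = 0.0287), and lower than in the libraries labelled Pax6 cKO after correction for GC content and length (-0.35, adjusted p = 0.0498). The call in the libraries labelled Pax6 cKO was lost with a term for sex (0.36, adjusted p = 0.0588). Cacna1d (ENSMUSG00000015968, chr14:30039939-30491455, minus strand), the L-type channel that opens at lower voltage, had 41.6, 33.1, 35.3 and 39.2 CPM in the BAF155 cKO libraries, 34.2, 29.9, 34.6 and 34.6 CPM in those labelled Pax6 cKO, and 51.9, 38.5, 43.8 and 39.2 CPM in the controls. All libraries labelled Pax6 cKO lay below the controls. Cacna1d fell in them (log2 fold change -0.38 ± 0.10 (SE), adjusted p = 0.012) and did not pass in BAF155 cKO (log2 fold change -0.22 ± 0.11 (SE), adjusted p = 0.163). The Cacna1d call was lost after correction for GC content and length (-0.14, adjusted p = 0.386). Cacna1f, the retinal member, had 0.214 to 0.638 CPM in BAF155 cKO, 0.175 to 0.579 CPM in the libraries labelled Pax6 cKO, and 0.239 to 0.496 CPM in the controls, and did not pass. Cacna1s, the skeletal muscle member, had too few reads to be tested, with 2 to 5 in BAF155 cKO, 0 to 6 in the libraries labelled Pax6 cKO, and 4 to 11 in the controls. It fell in the libraries labelled Pax6 cKO without a filter on low counts (-2.48, adjusted p = 0.00534), with 2 of these 4 libraries at 0 reads.

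The Cav2 channels (Cacna1a, b and e) trigger transmitter release. None of the 3 passed in any comparison in the edgeR test by group alone, while 1, Cacna1b, was higher in BAF155 cKO at an unadjusted p under 0.05 and with DESeq2. Cacna1b (ENSMUSG00000004113, chr2:24603887-24763152, minus strand), the N-type channel and the highest of the 3 per kb of exon, had 110.5, 97.9, 105 and 102 CPM in the BAF155 cKO libraries, 99.4, 87.3, 94.2 and 92 CPM in those labelled Pax6 cKO, and 102, 78.3, 86.4 and 81.1 CPM in the controls. BAF155 cKO overlapped with control 1 alone, and the difference missed the threshold (log2 fold change 0.25 ± 0.09 (SE), adjusted p = 0.0629). It passed with DESeq2 (0.25, adjusted p = 0.0386), with the replicate block (0.26, adjusted p = 0.0367), after correction for GC content and length (0.39, adjusted p = 0.0136), with a term for sex (0.31, adjusted p = 0.0398), without BAF155 cKO 2 (0.28, adjusted p = 0.0422) and without control 1 (0.33, adjusted p = 0.0137). Libraries labelled Pax6 cKO had more Cacna1b than Control after correction for GC content and length (0.33, adjusted p = 0.0161). Cacna1e had 116 to 136 CPM in BAF155 cKO, 94.8 to 119.9 CPM in the libraries labelled Pax6 cKO, and 99.97 to 137 CPM in the controls. Cacna1a had 35.6 to 54.7, 34.0 to 49.4 and 35.2 to 49.3 CPM in the same order.

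Cav3 channels (Cacna1g, h and i) carry the low-voltage T-type current. Cacna1g (ENSMUSG00000020866, chr11:94408391-94474198, minus strand), which drives thalamic burst firing, had 84.8, 54.5, 55.1 and 75.3 CPM in the BAF155 cKO libraries, 86.4, 56, 74.4 and 56.8 CPM in those labelled Pax6 cKO, and 51.8, 32.2, 41.5 and 45.4 CPM in the controls. All 8 cKO libraries exceeded the controls, and within BAF155 cKO libraries 1 and 4 were above 2 and 3. It rose in BAF155 cKO (log2 fold change 0.66 ± 0.18 (SE), adjusted p = 0.0263) and in the libraries labelled Pax6 cKO (log2 fold change 0.68 ± 0.18 (SE), adjusted p = 0.00913). The BAF155 cKO call was lost without library BAF155 cKO 1 or 4, or control 2 or 3 (with adjusted p between 0.0658 and 0.0934), and without a filter on low counts (0.62, adjusted p = 0.103), with a term for sex (0.63, adjusted p = 0.0659), with only the lane 1 libraries of BAF155 cKO (0.72, adjusted p = 0.0909) and with only the lane 3 libraries of BAF155 cKO (0.60, adjusted p = 0.068). The other call was lost with a term for sex (0.70, adjusted p = 0.0802). Cacna1h (ENSMUSG00000024112, chr17:25374285-25433783, minus strand), the highest calcium channel gene per kb of exon at 15.3 RPKM, had 206, 131, 146 and 178 CPM in the BAF155 cKO libraries, 166, 141, 154 and 119.9 CPM in those labelled Pax6 cKO, and 159, 129, 146 and 117 CPM in the controls. The groups overlapped and no comparison passed in the edgeR test by group alone, with log2 fold changes of 0.26 ± 0.14 (SE) in BAF155 cKO and 0.08 ± 0.14 (SE) in the libraries labelled Pax6 cKO. Cacna1h was higher in BAF155 cKO than in Control after correction for GC content and length (0.42, adjusted p = 0.0467). Cacna1i had 11.3 to 15.3 CPM in BAF155 cKO, 10.2 to 12.6 CPM in the libraries labelled Pax6 cKO, and 10.7 to 11.7 CPM in the controls, and did not pass in the edgeR test by group alone. Cacna1i was higher than in Control in BAF155 cKO after correction for GC content and length (0.40, adjusted p = 0.02), and in the libraries labelled Pax6 cKO after correction for GC content and length (0.36, adjusted p = 0.0184).

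Genes named as subunits or partners of these pores were read from lists. Of 20 tested auxiliary and electrically silent subunits of potassium channels, 2 rose and 2 fell in BAF155 cKO, and 5 rose and 2 fell in the libraries labelled Pax6 cKO. These calls were 20% and 35% of those tested, beside 13.6% and 35.5% of all genes. Kcng1, a silent subunit that assembles with Kv2 pores, averaged 16.3 ± 1.7 CPM in BAF155 cKO, 8.97 ± 0.67 CPM in the libraries labelled Pax6 cKO, and 31.1 ± 8.0 CPM in the controls (SD, n = 4 each). It fell in BAF155 cKO (log2 fold change -0.93, adjusted p = 0.00101) and in the libraries labelled Pax6 cKO (-1.79, adjusted p = 1.52e-06), and was higher in BAF155 cKO than in the libraries labelled Pax6 cKO (0.86, adjusted p = 0.00637). Kcns2, another Kv2 partner, rose in BAF155 cKO (0.91, adjusted p = 0.0186) and in the libraries labelled Pax6 cKO (1.27, adjusted p = 0.000968), and Kcnv1 fell in both (-0.44, adjusted p = 0.0306, and -0.57, adjusted p = 0.00336). Among Kv4 partners, Dpp10 rose in BAF155 cKO (0.60, adjusted p = 0.0263), and Kcnip4 rose in the libraries labelled Pax6 cKO (0.68, adjusted p = 0.000594). Kcnip2, a further Kv4 partner, rose in the libraries labelled Pax6 cKO (0.57, adjusted p = 0.0162) and was lower in BAF155 cKO than in them (-0.90, adjusted p = 0.00806). Kcne2, a beta subunit typical of choroid plexus, rose in the libraries labelled Pax6 cKO (2.82, adjusted p = 0.00799), at 2.56 ± 2.4 CPM against 0.347 ± 0.13 CPM in the controls.

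Of 14 tested genes named as calcium channel auxiliary subunits (Cacnb, Cacna2d and Cacng), 2 rose in BAF155 cKO (14.3% called). In the libraries labelled Pax6 cKO 3 rose and 1 fell (28.6% called). The Cacng genes are listed by name, and which channel or receptor they serve here was not tested. The shares over all genes were 13.6% and 35.5%. Cacna2d2 averaged 89.9 ± 15 CPM in BAF155 cKO, 99.9 ± 17 CPM in the libraries labelled Pax6 cKO, and 60.4 ± 15 CPM in the controls (SD, n = 4 each), and rose in both cKO groups (0.57, adjusted p = 0.0352, and 0.72, adjusted p = 0.00462). Cacna2d3 rose in BAF155 cKO (0.37, adjusted p = 0.0325). Among libraries labelled Pax6 cKO, Cacng5 rose (0.84, adjusted p = 0.000663) and Cacna2d1 fell (-0.27, adjusted p = 0.0293). Both also differed in the direct contrast, Cacng5 lower in BAF155 cKO (-0.63, adjusted p = 0.0199) and Cacna2d1 higher (0.49, adjusted p = 0.00599). Of 11 sodium channel partners and axon initial segment genes, 1 fell in BAF155 cKO (9.09%) and 4 fell in the libraries labelled Pax6 cKO (36.4%). Nrcam, an adhesion molecule of the initial segment, fell in both (-0.31, adjusted p = 0.025, and -0.44, adjusted p = 0.00168), and Nfasc, the neurofascin of the same site, fell in the libraries labelled Pax6 cKO (-0.66, adjusted p = 0.000601) and was higher in BAF155 cKO than in them (0.53, adjusted p = 0.013).

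Of 30 tested inward rectifier, tandem-pore, calcium-activated, sodium-activated and HCN channel genes, 5 rose and 5 fell in BAF155 cKO, and 6 rose and 7 fell in the libraries labelled Pax6 cKO. These calls were 33.3% and 43.3% of those tested, beside 13.6% and 35.5% of all genes. Kcnk10, a mechanosensitive tandem-pore channel, averaged 19.2 ± 1.5 CPM in BAF155 cKO, 19.7 ± 1.1 CPM in the libraries labelled Pax6 cKO, and 30.9 ± 1.1 CPM in the controls (SD, n = 4 each), and fell in both cKO groups (-0.69, adjusted p = 7.19e-05, and -0.65, adjusted p = 6.38e-05). Kcnk5 also fell in both (-1.16, adjusted p = 0.000227, and -1.06, adjusted p = 0.000205). Kcnj5, a G-protein-gated inward rectifier, rose in both (0.83, adjusted p = 0.00345, and 0.99, adjusted p = 0.000388). Kcnj9 rose in BAF155 cKO (0.53, adjusted p = 0.0257), Kcnk13 in the libraries labelled Pax6 cKO (1.53, adjusted p = 0.000231). In the direct contrast Kcnk1 was lower in BAF155 cKO (-0.85, adjusted p = 0.0122).

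As genes, the channels are long. The 54 members span 1.9 to 609 kb with a median of 69.4 kb, beside 17.6 kb for the 21695 protein-coding genes of the files, and 24 members exceed 100 kb. Their median exon length is 7.23 kb, beside 3.52 kb. Exons of 13 members overlap those of another gene, among the called ones Kcna6, Kcnd3 (165 bases with Kcnd3os), Kcnq5 (237 bases with Gm26580), Kcnh3 (1 base with Mcrs1) and Cacna1d (589 bases with Chdh), all on the opposite strand, and their reads cannot be told apart there. The same holds for the related genes Kcnip4, Cacna2d2, Kcnj9 and Kcnk1, whose exons overlap other genes on the opposite strand.

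In the RefSeq promoter table (GRCm38.p6), 37 member symbols were found with 46 promoters. Their median GC content was 60.5% beside 52.7% for all 32851 promoters, and their median number of CG dinucleotides was 11 beside 7. Searched on both strands, the E-box CAGATG stood in 19.6% of member promoters and 17.2% of all promoters, and the E-box CAGCTG, its own reverse complement, in 28.3% and 16.3%. The 28.3% are 13 of 46 promoters, and overlapping windows of Kcnc2 each hold CAGCTG, so a match may count more than once. The letters TTCACGC, found in Pax6 binding motifs, stood in 0% of member promoters and 1.26% of all, and the TATA box TATAAA in 4.35% and 13.6%. At so low a rate over all promoters, 46 windows may hold no TTCACGC, so its 0% shows no difference. The 2 E-boxes differ in 1 letter, and matches of different motifs may share bases at their ends. Of the 3 promoters printed above, that of Kcnh5 holds CAGATG on one of its strands, and none of the other searched motifs was found in these windows. A match is a run of letters and says nothing of binding.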

How the data were processed

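Total RNA of 12 libraries was sequenced after TruSeq RNA v2 preparation, per the labels' protocols. The authors deposited raw read counts per Ensembl gene, 1 table per library, with no normalization. Per the submitters' processing notes the reads were placed on mm10. Not given in the sources used here were the aligner, the counter and the annotation. Groups and replicate numbers came from the titles.

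Of 48709 identifiers, 48349 matched GENCODE M21 (GRCm38), used for symbols, positions and exon lengths. The test was edgeR 4.0.16 under R 4.3.3, with TMM scaling, filterByExpr (16511 genes), and a robust quasi-likelihood F-test over all 12 libraries with 1 coefficient per group. Calls needed a p under 0.05 after Benjamini-Hochberg adjustment over all genes tested. Every adjusted p in the text is from this test unless another tool, an alternative run or a left-out library is named. Standard errors were obtained as the size of the log2 fold change over the square root of F. CPM divide counts by the TMM-scaled library size in M, and RPKM are CPM per kb of exon. The procedure was checked on simulated counts, drawn independently for each library with few genes changed. That check does not cover libraries of a group that resemble each other, or changes in many genes. Floors of 3 reads cover counting error only.

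The channel genes and the lists of related genes and markers were chosen with earlier results of these data known. The rule named every channel gene, with library values for those called in any contrast and for the highest per kb in each subfamily, and from each related list the 2 called genes of smallest adjusted p per direction and comparison. Some genes this rule names are not reported here or drawn in the figures, though counts and medians include them. Alternatives were DESeq2 1.42.0, limma-voom (limma 3.58.1), RLE size factors, 2 other filters, the 8 libraries compared, a replicate block, a GC and length correction, a sex term, lanes, and leaving out each library. Same-numbered libraries of different groups deviated with correlations of -0.23 to 0.38, so the numbers do not pair them. No pair of libraries was a duplicate.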

Additional observations from a re-analysis of the deposited data

Results flagged for a closer look

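In 4 of 81 sets of 4 library values, 1 library stood far from the other libraries of its group (Dixon's test at its 95% level), where chance marks about 1 set in 20. Kcna1 had 5.4 CPM in labelled Pax6 cKO 1, with the nearest library at 4.94 CPM. Kcna6 had 15.2 CPM in the same library, with the nearest at 17.6 CPM. Cacna1d had 29.9 CPM in labelled Pax6 cKO 2, with the nearest at 34.2 CPM. Kcna3 had 11.6 CPM in BAF155 cKO 4, with the nearest at 9.7 CPM. The Kcna1 and Cacna1d calls in the libraries labelled Pax6 cKO held without the library named, and the Kcna6 call did not (adjusted p = 0.0503 to 0.0746 over the libraries whose absence ended it).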

How the results depend on the processing

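No member named with its library values changed sign in a call under any alternative. The 9 calls in BAF155 cKO against Control (5 higher, 4 lower) became 8 higher with DESeq2, 3 higher with no filter, 2 lower with only the 8 libraries compared, 11 higher after GC and length correction, 1 higher with the lane 1 libraries and 1 lower with the lane 3 libraries of BAF155 cKO. The shares of all genes called, 13.6% before, were 17.6%, 6.49%, 6.52%, 13.4%, 3.98% and 12.4% in the same order. The 19 calls in the libraries labelled Pax6 cKO (7 higher, 12 lower) became 7 lower after GC and length correction, and 2 higher and 7 lower with a term for sex. Of all genes tested, 29.2% and 10.7% passed in these runs, beside 35.5% before. The 2 calls of the direct contrast (2 higher, 0 lower) became 7 higher and 1 lower with DESeq2, 5 higher with only the 8 libraries compared, 4 higher and 2 lower after GC and length correction, 0 higher with a term for sex and 1 higher with the lane 3 libraries. Here the shares of all genes called, 4.31% before, were 8.61%, 6.1%, 4.12%, 0.0787% and 1.24% in the same order. Leaving out 1 library at a time gave 2 to 10 higher and 2 to 6 lower in BAF155 cKO, 4 to 8 higher and 8 to 13 lower in the libraries labelled Pax6 cKO, and 2 to 5 higher and 0 to 1 lower in the direct contrast. In these runs 5.97% to 24.5%, 22.7% to 39.7% and 1.83% to 5.41% of all genes passed, in the same order. The replicate block gave 6 higher and 3 lower, 7 higher and 11 lower, and 2 higher and 0 lower, beside 13.6%, 34.5% and 3.01% of all genes. With a term for sex, 6 of the 9, 8 of the 19 and none of the 2 calls remained. Of all genes tested, 27.5%, 10.7% and 0.0787% passed with that term, beside 13.6%, 35.5% and 4.31% without it. The cause of these changes was not tested. Sex, lane and genotype are confounded in part, 4 libraries a group limit the precision, and members under about 1 CPM rest on few reads.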
